A study of Mus musculus with 9 samples.

Results

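This account concerns 10 mouse genes of the signalling step just below Toll-like receptors: Myd88, Irak1, Irak2, Irak3, Irak4, Tollip, Map3k7, Map3k8, Tbk1 and Ikbke. All probe sets whose platform annotation names 1 of these genes and no other were taken, which gave 16 of 22626 probe sets and 7 of the 10 genes. Irak1 has 4 of these probe sets, Map3k7 has 5, Tollip and Tbk1 have 2 each, and Myd88, Map3k8 and Ikbke have 1 each. Irak2, Irak3 and Irak4 were given no probe set by this rule and are not analysed here. The study measured total RNA of RAW 264.7, a mouse macrophage cell line, on 9 Affymetrix arrays. The untreated group has 3 arrays of the cells without addition. The LPS group has 3 arrays of cells given bacterial lipopolysaccharide, the ligand of the receptor TLR4, at 100 ng/ml for 18 h. The CstF-64 group has 3 arrays of cells described as constitutively overexpressing CstF-64, a subunit of the factor that cleaves pre-mRNA ahead of polyadenylation. All groups share the cell line, and the sources used here do not give its passage, the expression construct, or whether the CstF-64 cells are a clone or a pool. No group carries an empty construct, so an effect of CstF-64 and other differences between the cell populations cannot be told apart.

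Toll-like receptors and interleukin-1 receptors share a cytoplasmic domain that recruits the adaptor MyD88. MyD88 assembles the IRAK kinases, which pass the signal through the ubiquitin ligase TRAF6 to the kinase TAK1, encoded by Map3k7, and from there to NF-kappaB and the MAP kinases. Tollip binds receptors and IRAK1 and is described as a restraint on this route. TPL2, encoded by Map3k8, is held by an NF-kappaB precursor protein in resting macrophages and activates ERK after LPS. TBK1 and its close relative IKK-epsilon, encoded by Ikbke, act on a parallel route that phosphorylates IRF3 and IRF7 and leads to type I interferon.

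Values are deposited intensities on a linear scale, given per array or as mean ± SD (n = 3 arrays per group). The level of one probe set cannot be set against that of another. An intensity of 31.2, the highest reached by 27 Bacillus control probe sets with no target in mouse RNA, served as the background limit. Of the 16 probe sets, 12 lay above it on all 9 arrays, and the other 4 belong to Map3k7. Log2 changes are differences of group means of log2(intensity + 13) from limma, with 95% intervals, and a probe set "rose" or "fell" where the Benjamini-Hochberg adjusted p over 22626 probe sets was under 0.05. Nothing says that the 3 samples of a group were separate cultures, so p-values measure only how far these samples spread, and that spread may be technical. Array medians were 42.75 to 49.3 in the LPS group and 51.1 to 54.2 elsewhere. LPS array 1 and CstF-64 array 1 correlated least with their own groups. The 10 macrophage markers examined, among them Csf1r, Cd68, Spi1 and Lyz2, were above background on all arrays. Of 33 markers of lymphoid, granulocytic, stromal and epithelial cells, only the fibroblast gene Dcn passed the test after LPS, at 47.5 ± 13.7 from values all below background. Not all of the 33 were at background. On all 9 arrays 1 of 5 B cell and 2 of 8 fibroblast and endothelial markers lay above it. In the untreated arrays 2 of 8 granulocyte and mast cell markers and 1 of 5 epithelial markers also did. The summed intensity of the macrophage markers was 17066.1 to 23376.1 in untreated, 23348.1 to 26746.5 in LPS and 18822.8 to 22479.5 in CstF-64 arrays, and 4 of them rose and 1, Csf1r, fell after LPS. The part of these shifts in the results was not tested. Cstf2, which encodes CstF-64, was not higher in the CstF-64 group by either of its probe sets (limma adjusted p = 1.00 and 0.763), so those arrays are called CstF-64 by their label alone. Whether these probe sets lie within the expressed construct is not known, so the values do not show whether the construct was expressed.

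After LPS both kinases of the interferon route rose. Ikbke rose from 41.2 ± 11.0 to 173 ± 56.1, and both probe sets of Tbk1 rose, the brighter from 218 ± 18.6 to 381 ± 40.8. Smaller rises passed the test for Map3k8 and for 1 of the 2 probe sets of Tollip. One of the 4 probe sets of Irak1 fell, and Myd88 and all 5 probe sets of Map3k7 did not pass. In all, 5 of 16 member probe sets rose and 1 fell, where 5.93% of all probe sets rose and 10.7% fell (16.6% either way). The calls belong to 4 genes that rose and 1 that fell. The median log2 change of the 16 was 0.21, against -0.04 over all probe sets. In 6 of them every LPS array lay above every untreated array, and in 4 every LPS array lay below. The same held for 12.2% and 21.2% of all probe sets (33.4% either way). An unadjusted p under 0.05 was reached by 8 of the 16, against 28.8% of all probe sets. In these bulk samples more transcript per cell and a larger share of expressing cells cannot be told apart.

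**Figure D1:**
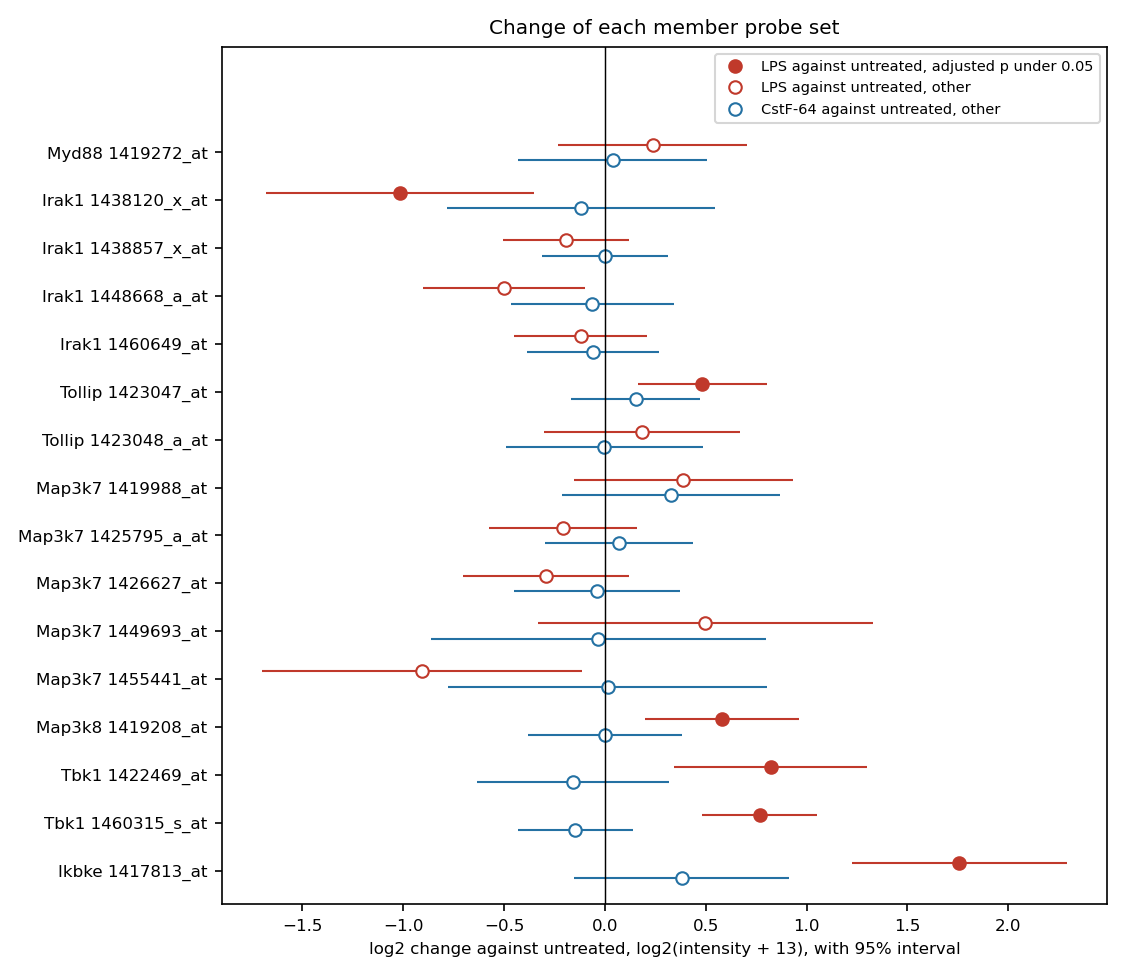
Log2 change against untreated cells (horizontal axis, log2(intensity + 13) scale) of each of the 16 member probe sets, with 95% limma intervals, for LPS (red) and CstF-64 (blue); filled points have an adjusted p under 0.05. Ikbke at 1.76 and the 2 Tbk1 probe sets at 0.77 and 0.82 stand to the right for LPS, and no CstF-64 point is filled.

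Myd88, the adaptor at the head of the route, was bright in every group. Probe set 1419272_at read 271.1, 264 and 199.4 in the untreated arrays, 294.7, 285.5 and 285.6 after LPS, and 356, 232.3 and 187.7 in the CstF-64 arrays. The 3 LPS arrays were nearly equal and all lay above the untreated ones, while the CstF-64 arrays held both the highest and the lowest value of the 9. The log2 change after LPS was 0.24 (SE 0.21, 95% interval -0.23 to 0.71, limma adjusted p = 0.523), which leaves room for a rise of 0.71 or a fall of 0.23. The mean in CstF-64 cells was 259 ± 87.2 against 245 ± 39.5 untreated (log2 0.04, interval -0.43 to 0.51, limma adjusted p = 1.00).

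Irak1 encodes the kinase that MyD88 recruits together with IRAK4. Its 4 probe sets gave unequal pictures after LPS. Probe set 1438120_x_at, of a type whose probes can match other transcripts, read 186.5, 76.2 and 124.1 in untreated cells, 36.2, 62.6 and 66.5 after LPS and 118.5, 89.8 and 127.7 in CstF-64 cells. All LPS arrays were lower than all others, and untreated array 1 was far above its group. The log2 change was -1.01, with SE 0.30 (limma adjusted p = 0.0435), and the probe set fell. The call was lost under 15 of 19 other settings, with adjusted p up to 0.138. Median centring gave adjusted p = 0.0854. Leaving out any single array except untreated array 2 also ended the call, with adjusted p of 0.138 without untreated array 1, 0.110 without untreated array 3, 0.121 without LPS array 1, and 0.0528 to 0.0636 without LPS array 2 or 3 or any CstF-64 array.

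The other 3 Irak1 probe sets did not pass. Probe set 1448668_a_at read 216.7, 139.8 and 144.9 untreated, 108.3, 116.4 and 112.1 after LPS and 185.6, 136.2 and 151.5 in CstF-64 cells, so that LPS again gave the lowest values (log2 -0.50, interval -0.90 to -0.10, limma adjusted p = 0.0923). Probe set 1438857_x_at read 106.9 to 111.6 after LPS against 114 to 152.7 untreated (log2 -0.19, limma adjusted p = 0.427). Probe set 1460649_at, the brightest of the gene on average, overlapped between groups, with 154 ± 22.2 after LPS and 168 ± 22.2 untreated (log2 -0.12, interval -0.45 to 0.21). Across the 9 arrays the first 3 probe sets correlated with each other at r = 0.809 to 0.936 and with 1460649_at at r = 0.301 to 0.532. Probe sets 1448668_a_at and 1460649_at derive from 1 sequence. These correlations describe 9 arrays that share the group differences.

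Tollip encodes an adaptor that binds ubiquitin and IRAK1. Probe set 1423047_at read 227.4, 269.8 and 250.7 untreated, 397.8, 298.5 and 369 after LPS and 244.9, 311.9 and 281.3 in CstF-64 cells. Every LPS array lay above every untreated array, and CstF-64 array 2 reached above LPS array 2. It rose, with a log2 change of 0.48 and SE 0.14 (limma adjusted p = 0.0456), and the call was lost under 11 of 19 other settings. It was lost without untreated array 1, 2 or 3, LPS array 1 or 3, or CstF-64 array 2 or 3, with adjusted p from 0.0579 to 0.135. Probe set 1423048_a_at, derived from the same sequence, read 98.2 ± 5.74, 114 ± 19.8 and 101 ± 31.8 in untreated, LPS and CstF-64 cells, and its groups overlapped (log2 0.18, interval -0.30 to 0.67, limma adjusted p = 0.659).

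**Figure D2:**
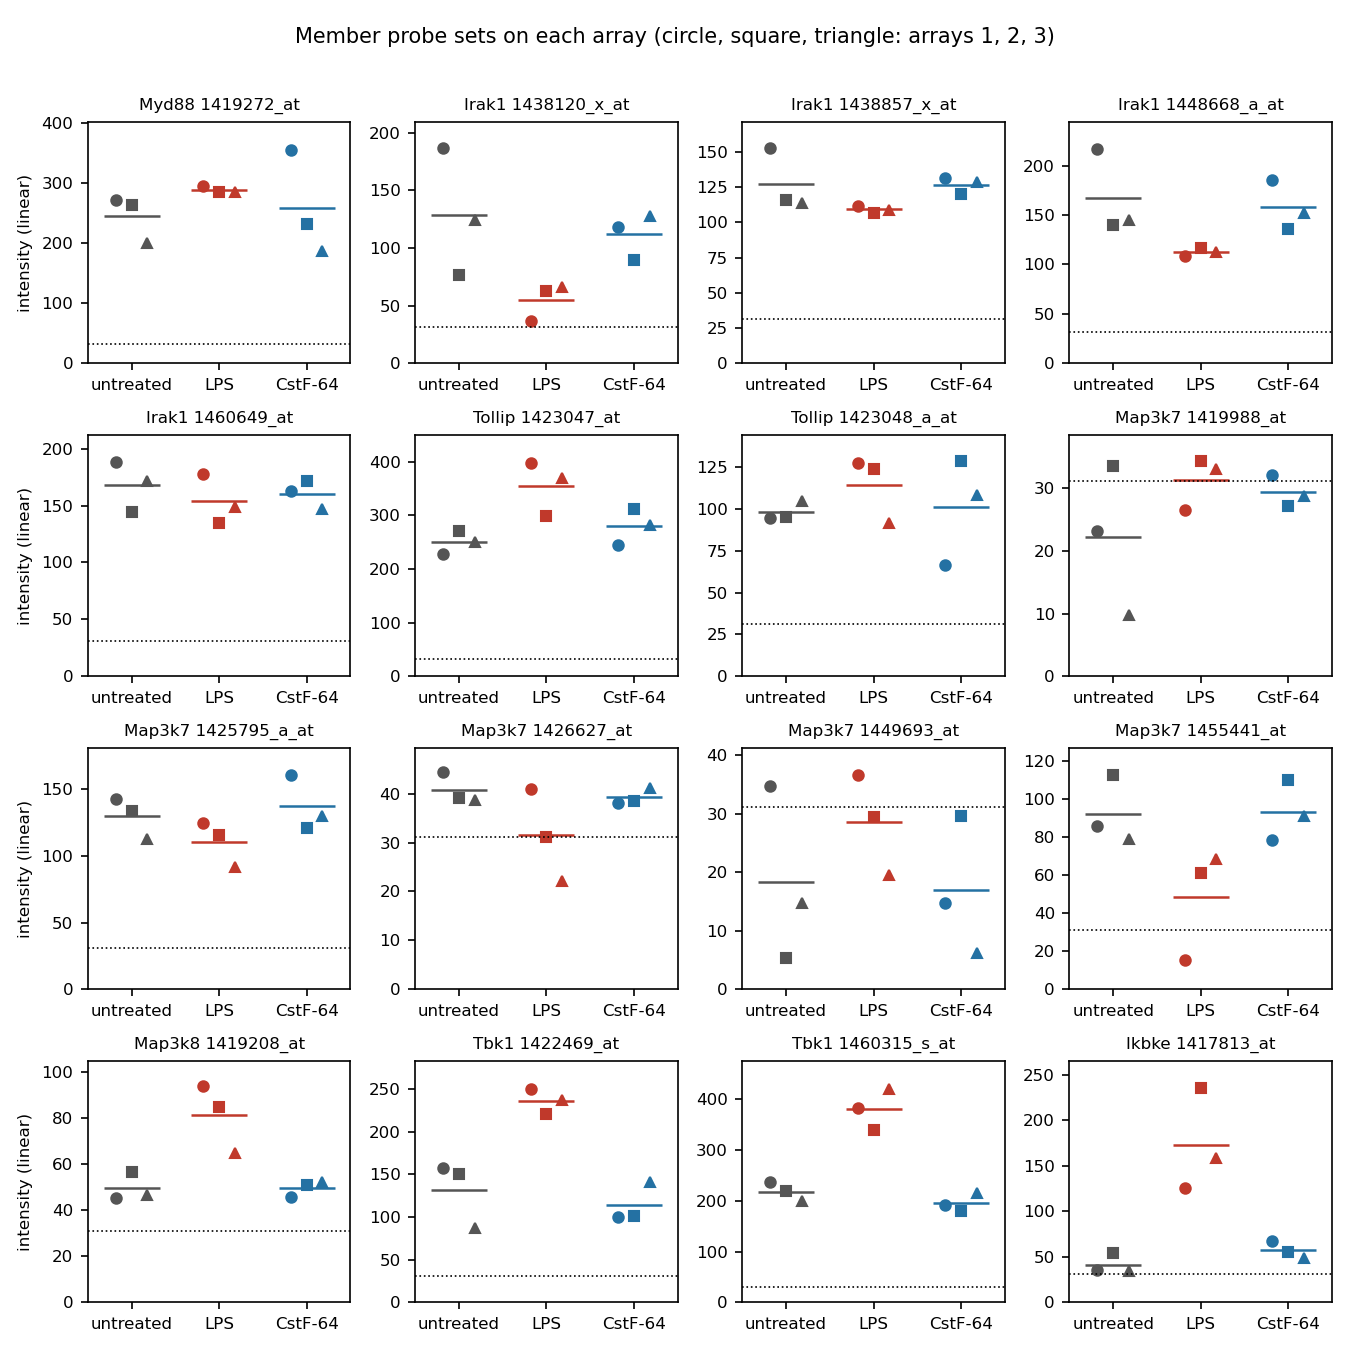
Deposited intensity (vertical axes, linear, each from 0) of the 16 member probe sets on every array, with circles, squares and triangles for arrays 1, 2 and 3, bars for group means, and a dotted line at the background limit of 31.2. The LPS arrays lie above all others for both Tbk1 probe sets, Ikbke and Map3k8, and below all others for 3 of 4 Irak1 probe sets and for Map3k7 1455441_at.

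Map3k7 encodes TAK1, the kinase at which the route branches to NF-kappaB and the MAP kinases. None of its 5 probe sets passed the test after LPS. The brightest, 1425795_a_at, read 142.4, 133.3 and 112.7 untreated, 124.8, 115.8 and 91.3 after LPS and 160.7, 121 and 129.6 in CstF-64 cells, with overlap between all groups (log2 after LPS -0.21, interval -0.58 to 0.16, limma adjusted p = 0.466). Probe set 1455441_at differed most. It read 85.6, 112.4 and 78.8 untreated, 15.6, 61.1 and 68.4 after LPS and 78.4, 110 and 91 in CstF-64 cells. All LPS arrays were the lowest, LPS array 1 below background, and the log2 change was -0.91 with a wide interval of -1.70 to -0.11 (limma adjusted p = 0.119). Without LPS array 1 the log2 change was -0.43. The remaining 3 probe sets lay at or near background, between 5.4 and 44.5 over all arrays, and 2 of these derive from 1 sequence.

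Map3k8 encodes TPL2, the kinase that carries LPS signals to ERK. It was dim, at 45.6, 56.8 and 46.8 in untreated cells, 93.9, 84.9 and 65 after LPS and 45.7, 50.9 and 52.3 in CstF-64 cells. Every LPS array exceeded all other arrays, and the untreated and CstF-64 arrays intermixed. It rose, with a log2 change of 0.58 and SE 0.17 (limma adjusted p = 0.0448). The call was lost under 10 of 19 other settings, among them leaving out untreated array 1, 2 or 3, LPS array 1 or 2, or CstF-64 array 2 or 3, with adjusted p from 0.0698 to 0.128.

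Tbk1 encodes the kinase that phosphorylates IRF3 downstream of the adaptor TRIF. Its probe set 1460315_s_at is of a type whose probes can match several transcripts. It read 236.2, 218.5 and 199.1 in untreated cells, 383.2, 338.6 and 420.1 after LPS and 192.3, 179.1 and 215.4 in CstF-64 cells. The LPS arrays stood clear of the rest, with the lowest of them above the highest untreated array. The log2 change was 0.77 (SE 0.13, interval 0.48 to 1.05, limma adjusted p = 0.0030), and it was called under all 19 other settings, with adjusted p from 0.00188 to 0.0159. The second probe set, 1422469_at, read 157.1, 150.5 and 87.2, then 250.3, 220.4 and 237.4, then 100.4, 101.6 and 141.1 in the same order of groups. It rose by a similar amount (log2 0.82, SE 0.21, limma adjusted p = 0.0265). That call was lost without untreated array 3, LPS array 1 or LPS array 3 (adjusted p = 0.0646, 0.0666 and 0.0738), with a floor in place of the offset, and without LPS array 1 and CstF-64 array 1 together. The 2 probe sets derive from 1 reference sequence, correlated at r = 0.937 over the 9 arrays, and did not differ in their change by the test for unequal probe sets (adjusted p = 0.957).

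Ikbke encodes IKK-epsilon, known as an inducible relative of the constitutive kinases of its family. It read 35.4, 53.9 and 34.3 in untreated cells, close to the background limit. After LPS it read 125.6, 235 and 159, and in CstF-64 cells 67.7, 55.3 and 48.5. The lowest LPS array was well above every other array, and the CstF-64 arrays overlapped the upper part of the untreated range. The log2 change after LPS was 1.76 (SE 0.24, interval 1.22 to 2.29, limma adjusted p = 0.000962), a ratio of mean intensities of 4.20. Ikbke stood at rank 639 of 22626 by p, and its change exceeded that of 98.9% of probe sets. The rise was called under all 19 other settings, with log2 changes from 1.27 with an offset of 50 to 2.05 with a floor in place of the offset. LPS array 1 was the lowest of the 3 LPS arrays, and without it the change was 1.95.

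**Figure D3:**
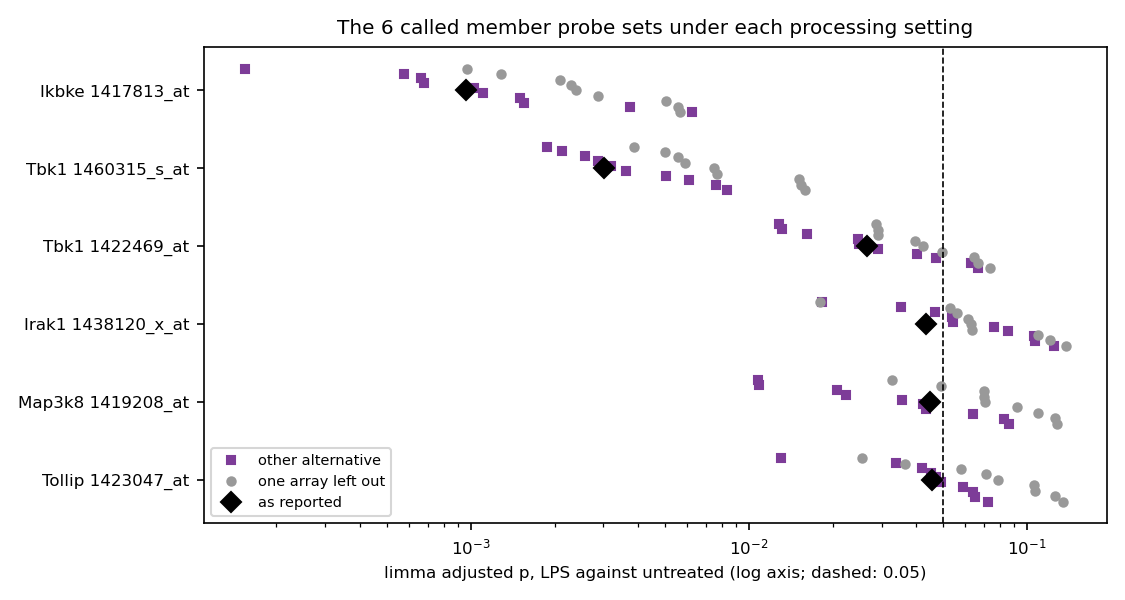
Limma adjusted p for LPS against untreated (horizontal log axis, dashed line at 0.05) of the 6 called member probe sets as reported (black diamonds), with each array left out (grey circles) and under the other settings (purple squares). All points of Ikbke and of Tbk1 1460315_s_at lie left of the line, and the other 4 probe sets have points on both sides.

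The promoters of Ikbke and Tbk1, whose rises were called under all settings by at least 1 probe set, are shown with that of Myd88, which did not pass, because interferon and NF-kappaB signals act on many LPS-induced genes through short promoter sites. The sequences are RefSeq's for GRCm38.p6, from 250 bases before to 50 bases after the annotated start, on the gene's own strand from 5′ to 3′. The table held 9 of the 10 genes and had no entry for Map3k8. The motifs searched on both strands were GGGNNTTTC for NF-kappaB, GAAANNGAA for the interferon-stimulated response element and TTCNNNGAA for STAT factors, and matches are in capitals. The windows are chr1:131279514-131279813 (minus strand) for Ikbke, chr10:121586745-121587044 (minus strand) for Tbk1 and chr9:119339969-119340268 (minus strand) for Myd88.
Ikbke: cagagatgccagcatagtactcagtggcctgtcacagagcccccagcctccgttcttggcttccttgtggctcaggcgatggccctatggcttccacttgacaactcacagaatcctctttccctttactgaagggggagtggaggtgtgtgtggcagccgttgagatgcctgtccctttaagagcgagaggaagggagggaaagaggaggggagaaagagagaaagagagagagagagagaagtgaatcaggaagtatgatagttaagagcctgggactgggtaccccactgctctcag
Tbk1: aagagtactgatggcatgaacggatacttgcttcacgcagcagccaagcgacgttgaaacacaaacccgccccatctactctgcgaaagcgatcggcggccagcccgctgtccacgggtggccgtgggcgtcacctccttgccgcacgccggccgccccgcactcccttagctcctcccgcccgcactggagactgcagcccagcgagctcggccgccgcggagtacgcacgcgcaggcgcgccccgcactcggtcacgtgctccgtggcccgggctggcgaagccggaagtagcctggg
Myd88: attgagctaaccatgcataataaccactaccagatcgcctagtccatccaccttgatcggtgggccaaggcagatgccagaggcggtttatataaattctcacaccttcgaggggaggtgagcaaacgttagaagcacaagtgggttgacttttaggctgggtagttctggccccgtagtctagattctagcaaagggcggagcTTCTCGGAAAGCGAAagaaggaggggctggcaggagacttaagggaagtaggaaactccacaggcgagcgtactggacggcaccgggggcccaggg

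The capitals in the Myd88 promoter hold a STAT match, TTCTCGGAA, and an interferon-response match, GAAAGCGAA, which overlap. The Ikbke and Tbk1 windows held none of the 3 motifs. The other matches among the members were GAAATTCCC, an NF-kappaB match on the opposite strand, in the Map3k7 window, and TTCATTTTC, an interferon-response match on the opposite strand, in that of Irak3, which was not measured here. The Irak3 match appears only with the interferon motif shortened by its last letter, and the shortened NF-kappaB and interferon motifs are also found in more promoters than their longer forms. Of 32851 promoters in the table, 4.36% held the NF-kappaB motif, 8.56% the interferon motif and 8.30% the STAT motif. A match is a run of letters and not a known site, and these windows leave out distant elements and other start sites.

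In CstF-64 cells no measured member passed the test against untreated cells. By limma 0 of 16 probe sets passed and 0 had an unadjusted p under 0.05, where 0.248% of all probe sets passed (0.102% higher and 0.146% lower) and 6.45% had an unadjusted p under 0.05. No member's groups were without overlap, against 12.9% of all probe sets (6.67% higher and 6.18% lower). The largest difference was that of Ikbke, 57.2 ± 9.74 against 41.2 ± 11.0 (log2 0.38, interval -0.15 to 0.92, limma adjusted p = 0.917). The upper end of that interval, 0.92, lies below the lower end of the LPS interval, 1.22. Both Tbk1 probe sets were slightly lower, with log2 differences of -0.15 and -0.16 and intervals of -0.43 to 0.14 and -0.64 to 0.32. Map3k8 read 49.6 ± 3.48 against 49.7 ± 6.15 (log2 0.00, interval -0.38 to 0.38). With 3 arrays per group these values leave room for a change of Map3k8 anywhere within that interval. The interval is not a detection limit, since larger changes could also miss the adjusted threshold. Map2k6, a kinase gene described further below, differed by log2 1.68 (SE 0.28) and did not pass (limma adjusted p = 0.0527).

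The LPS and CstF-64 groups were also compared with each other, in a test that shares its arrays with both comparisons above. Ikbke (log2 -1.37, SE 0.24, limma adjusted p = 0.0040), Tbk1 1460315_s_at (log2 -0.91, SE 0.13, limma adjusted p = 0.00117), Tbk1 1422469_at (log2 -0.98, SE 0.21, limma adjusted p = 0.0128) and Map3k8 (log2 -0.58, SE 0.17, limma adjusted p = 0.0478) were lower in CstF-64 cells. These 4 probe sets of 3 genes compare with 5.79% of all probe sets lower and 9.43% higher in CstF-64 cells. No member was called higher. The groups did not overlap in 8 of 16 member probe sets, 4 each way, against 30.8% of all probe sets (19.4% higher and 11.4% lower), and 8 of the 16 had an unadjusted p under 0.05, against 28% of all probe sets. Irak1 1438120_x_at read 112 ± 19.8 in CstF-64 cells against 55.1 ± 16.5 after LPS (log2 0.90, limma adjusted p = 0.0742). It passed on leaving out untreated array 1 or 2 (adjusted p = 0.0463 and 0.0446) and with a filter on dim probe sets. The Map3k8 call was lost under 11 of 19 other settings, without any single array except LPS array 3, and the call of Tbk1 1422469_at was lost without CstF-64 array 2 (adjusted p = 0.0531) and without LPS array 1 and CstF-64 array 1 together (adjusted p = 0.0664). Tollip 1423047_at, not called as reported (log2 -0.33, limma adjusted p = 0.166), passed with median centring (log2 -0.49, adjusted p = 0.0449).

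Because CstF-64 acts where transcripts end, probe sets of 1 gene were tested for unequal change. Where the probe sets lie along the transcripts was not examined, so the test cannot show whether transcript ends moved. The test, limma's diffSplice over the 4956 genes with 2 or more probe sets, covered Irak1, Tollip, Map3k7 and Tbk1. After LPS the log2 changes ran from -1.01 to -0.12 over the Irak1 probe sets (diffSplice unadjusted p = 0.0206, adjusted p = 0.163). Over those of Map3k7 they ran from -0.91 to 0.50 (diffSplice unadjusted p = 0.0158, adjusted p = 0.139). The 0.50 was that of 1449693_at, above background on 2 of the 9 arrays. The -0.91 was that of 1455441_at, for which LPS array 1 lay below background. Of all genes tested, 5.85% were called and 18.3% had an unadjusted p under 0.05. Neither Irak1 nor Map3k7 passed, nor did Tollip (adjusted p = 0.652). In CstF-64 cells no gene of the 4956 was called by diffSplice, and 2.89% had an unadjusted p under 0.05. The 4 members had unadjusted p from 0.561 to 0.981, and the changes of their probe sets spanned -0.16 to 0.33. The 0.33 was that of Map3k7 1419988_at, above background on 4 of the 9 arrays.

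Other genes of the pathway came from 9 lists, 71 of whose 88 genes were measured, by the brightest probe set of each gene. After LPS 19 rose and 1 fell, where 6.67% of 12393 named genes rose and 10.4% fell. Of 11 negative regulators 7 rose, and of 10 output cytokines and enzymes 8 rose, with median log2 changes of 1.82 and 4.44. Of 18 receptors and accessory proteins, Cd14, which hands LPS to TLR4, rose (log2 0.81, limma adjusted p = 0.0153) and Ly86, a partner of the receptor relative RP105, fell from 806 ± 67.1 to 489 ± 52.1 (limma adjusted p = 0.0069). None of 3 TIR adaptors and chaperones, 3 genes of the IKK and MAP3K8 complexes or 8 MAP kinases and their kinases passed.

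Among the direct partners of the members a few genes stood out after LPS. Of 8 ubiquitin enzymes and TAK1 partners only Peli1, a ubiquitin ligase that acts on IRAK1, rose, from 115 ± 8.43 to 466 ± 34.6 (log2 1.90, SE 0.12, limma adjusted p = 9.4e-06). Of 5 scaffolds of TBK1 and nucleic acid sensors only Ifih1, the RNA sensor MDA5, rose, from 79.8 ± 8.60 to 621 ± 228 (log2 2.72). Of 5 interferon regulatory factors only Irf7, a substrate of TBK1 and IKK-epsilon, rose (log2 4.52, limma adjusted p = 5.6e-07). The negative regulators with the smallest p were Socs3, at least 48.1-fold higher, the RNase Zc3h12a, at least 6.07-fold higher, and Trim30a, from 112 ± 4.69 to 618 ± 172. The fold bounds set the geometric mean of the 3 LPS arrays against the background limit, since both genes were at or below it in all untreated arrays. Of the outputs, Il1b, Ccl5 and Ptgs2 had the smallest p, with log2 changes of 5.81 to 5.88.

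**Figure D4:**
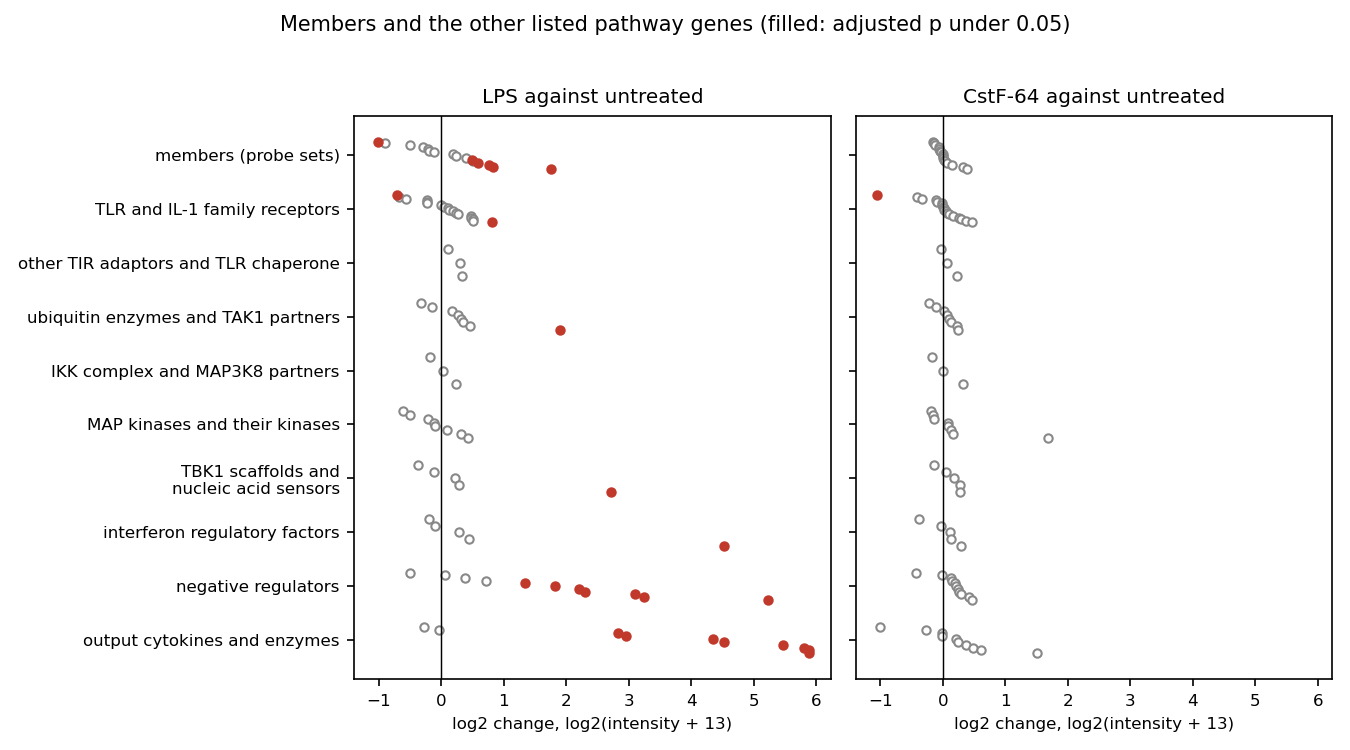
Log2 change (horizontal axes, log2(intensity + 13) scale) against untreated cells for the 16 member probe sets and for each measured gene of 9 pathway lists, for LPS (left) and CstF-64 (right); filled points have an adjusted p under 0.05. After LPS the negative regulators and the outputs reach 5.23 and 5.88, the members reach 1.76, and in CstF-64 cells the 1 filled point is Ly86 at -1.05.

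In CstF-64 cells 1 of the 71 genes passed by limma, against 0.274% of all named genes. An unadjusted p under 0.05 was reached by 7 of the 71 and by 848 of all 12393 named genes. The gene that passed was Ly86, which fell to 385 ± 55.6 (log2 -1.05, SE 0.14, limma adjusted p = 0.0146). Between CstF-64 and LPS cells 19 of the 71 were lower and 2 higher in CstF-64 cells, where 6.38% of all named genes were lower and 9.51% higher. The higher ones were Lbp, which binds LPS in serum, at 31.8 ± 10.4 close to background, and Map2k6, a kinase upstream of p38. Map2k6 read 77.4 ± 30.2 in CstF-64 cells and lay below background in all untreated and LPS arrays. The geometric mean of the CstF-64 arrays was at least 2.33-fold higher than in LPS cells, by the same bound. Its difference from untreated cells just missed the threshold (limma adjusted p = 0.0527).

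The genes whose log2 values ran most like those of the members over the 9 arrays were sought among 7991 genes above background on average. For Ikbke they were Hpf1, Marcksl1 and Brd2 (Pearson r = 0.975, 0.972 and 0.968), with log2 changes after LPS of 0.47, 2.69 and 0.70. For Tbk1 1460315_s_at they were Bin3, Insl6 and Dlgap4 (r = 0.995, 0.987 and 0.977). For the brightest Irak1 probe set, 1460649_at, whose groups overlapped, they were Dnajc8, Foxc1 and Smad6 (r = 0.945, 0.925 and 0.922). Among the members themselves, Ikbke, Tbk1 and Map3k8 ran together (r = 0.820 to 0.841), and Map3k7 1425795_a_at ran against Tbk1 and Tollip (r = -0.589 and -0.613). All these correlations describe 9 arrays in which 3 share the LPS treatment.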

How the data were processed

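Per the labels, RNA came from an Ultraspec isolation and a university core facility ran the arrays. Each deposited value is the intensity of 1 probe set on 1 array, while the sources used here do not give the authors' software or normalization. The arrays share a trimmed mean (2% from each end) of 150.05 to 150.06, so values were used as deposited. The table holds 22690 probe sets, of which 64 are controls. Probe sets were named from the platform annotation, with symbols updated by gene identifier to GRCm38.p6, and 20380 carried 1 gene, 691 several and 1555 none. Members, lists and tests were chosen with earlier results of these data known.

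Log2(intensity + 13), where 13 is 0.25 of the median of all values (50.2), was fitted with 1 mean per group over all 9 arrays in limma 3.58.1 (eBayes with an intensity trend, R 4.3.3), two-sided, adjusted by Benjamini-Hochberg. The fit was tested on simulated data. The rule for named genes took all member probe sets, up to 3 called genes each way per list and comparison by smallest adjusted p, Cstf2 and Cstf2t (which read 268 ± 13.5, 196 ± 31.4 and 260 ± 10.5 in untreated, LPS and CstF-64 cells), and the 3 genes most like each of up to 3 members. Deviations from the group mean correlated at r = -0.063 to 0.158 between same-numbered arrays of different groups, with 3 of 9 pairs over 0.1. Between arrays of different numbers r was -0.236 to 0.196, with 1 of 18 pairs over 0.1. The labels do not say that a number marks a shared culture or day, so numbers were not taken as pairs. Promoter motifs were chosen with their matches seen, and the NF-kappaB and interferon motifs are the first 9 letters of longer forms. Alternatives were quantile normalization, median centring, offsets of 1 and 50, a floor of 32, a filter on dim probe sets, no intensity trend, only the 2 groups compared, a replicate block and leaving out each array. Leaving out LPS array 1 and CstF-64 array 1 together was added after the data were seen.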

Additional observations from a re-analysis of the deposited data

How the results depend on the processing

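The rises of Ikbke and of Tbk1 1460315_s_at after LPS kept their direction and their call under all 19 alternatives run, and no member was called in CstF-64 against untreated cells under any of them. The number of member probe sets that rose after LPS was 5 as reported and 3 with a floor of 32 in place of the offset, with only the 2 groups compared and with the replicate block, and 2 without the 2 arrays that stand apart. Leaving out single arrays it was 2 to 5, namely 2 without untreated array 3 or LPS array 1, and 3 without untreated array 1 or 2, LPS array 3, or CstF-64 array 2 or 3. The number that fell was 1 as reported and 0 under quantile normalization, median centring, an offset of 50, the floor, only the 2 groups compared, the replicate block and without the 2 arrays that stand apart, and 0 to 1 leaving out single arrays. In CstF-64 against LPS, 4 members were lower as reported, 5 with median centring, which added Tollip 1423047_at, 2 without the 2 arrays that stand apart, and 2 to 4 leaving out single arrays, with 2 without CstF-64 array 2. The number higher was 0 as reported, 1 with the filter on dim probe sets, and 0 to 1 leaving out single arrays.

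Median centring moved the median change of all probe sets after LPS from -0.04 to 0.12. With it 2228 probe sets were higher and 1455 lower after LPS, where the deposited scaling gave 1341 and 2414 (60.5% and 35.7% of calls higher, and 46.2% under quantile normalization). No called member probe set changed direction under it. In CstF-64 against LPS it gave 1249 higher and 2097 lower against 2133 and 1310 as reported. Leaving out single arrays gave 924 to 1465 higher and 1475 to 2653 lower after LPS, and 1239 to 2067 higher and 854 to 1255 lower in CstF-64 against LPS. The number lower after LPS was 1475 without untreated array 2, and the number higher in CstF-64 against LPS was 1282 and 1239 without CstF-64 array 2 or 3, the latter also giving 854 lower. In CstF-64 against untreated, 23 were higher and 33 lower as reported, 13 and 19 with the replicate block, 141 and 145 without the 2 arrays that stand apart, and 8 to 53 and 10 to 57 leaving out single arrays, the lowest without untreated array 2 and the highest without CstF-64 array 1.

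The numbers of genes with unequal probe sets after LPS were 290 as reported, 189 with an offset of 1, 487 with the floor, and 116 to 328 leaving out single arrays, with 173, 116 and 140 without untreated array 1, 2 or 3. In CstF-64 against untreated they were 0 as reported, 1 with median centring, 3 and 5 with offsets of 1 and 50, 22 with the floor, 2 with the filter, 4 with only the 2 groups compared, 17 without the 2 arrays that stand apart, and 0 to 3 leaving out single arrays. No member was among the called genes under any setting. The causes of these differences were not tested. With 3 arrays per group the number of arrays limits the precision, and values near 31.2 carry little signal over background.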
